A study of Mus musculus with 17 samples.

Results

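The genes described here are 30 transcription regulators known for patterning the forebrain or for marking the layers of the cerebral cortex, out of 45147 features counted in 17 mouse brain libraries. They were taken from a list of named genes, and all of them were found in the deposited counts after the transcript rows of each gene had been summed. By known role, 6 act in dorsal and areal patterning, 4 in ventral patterning, 7 in deep-layer projection neurons, 5 in neurons of the upper and middle layers and 5 in neuronal differentiation. The remaining 3 are the inhibitory factor gene Id2, the LIM-only cofactor gene Lmo3 and Prox1, a homeobox gene of dentate granule neurons. The list mixes genes of different cells, and it is treated as a list of regulators, not as the signature of a cell type.

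The forebrain is laid out by transcription factors that act early and in gradients: homeobox genes such as Emx2 and Lhx2 set up the dorsal part from which cortex and hippocampus form, while Gsx2 and Nkx2-1 set up the ventral part that gives rise to the striatum and to many inhibitory neurons. Later factors sort newborn cortical neurons into layers, with Tbr1, Fezf2 and Bcl11b known from the deep layers and Cux2 and Rorb from the upper and middle ones. Many of these genes stay active in the adult neurons that they helped to form, and several are also used elsewhere in the brain.

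The libraries were made from total RNA of mouse brain on the C57BL/6 strain background, 6 from mice with a transgene and 11 from control mice. The transgene overexpresses HAR1A, a human long noncoding RNA gene that contains sequence changed rapidly in the human lineage. The question behind the comparison was which genes go with this RNA in the nervous system. The sources used here do not give the promoter that drives the transgene, the founder line, the part of the brain taken, age or sex, and HAR1A itself was not analysed here. The labels do not say whether each library came from its own animal, so p-values measure only the spread between these libraries, which may be technical.

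Assigned counts per library ranged from 17067407 to 22642441. All 6 transgene libraries and 3 controls were sequenced on lane 4 of a flow cell, 6 controls on lane 8, 1 on lane 2 and 1 on lane 6 of another flow cell. Genes of neurons in general were present in every library, with a summed level of 3805 to 5241 CPM (counts scaled to a common library total) in the transgene libraries and 3713 to 5800 CPM in the controls over 6 genes. Summed levels of some marker lists did not overlap between the groups, and those of others did. The summed level of 12 genes of cortical and hippocampal excitatory neurons was 4780 to 6957 CPM in the transgene libraries and 567 to 3055 CPM in the controls. For 12 Hox genes of hindbrain and spinal cord it was 0.0464 to 0.634 CPM against 16.0 to 305.5 CPM, with Hoxa2, Hoxb2, Hoxd3 and Hoxd4 at 0 in every transgene library. For 6 genes of cerebellar granule cells it was 26.4 to 336.9 CPM against 89.9 to 2034 CPM, so these groups overlapped, as they did for thalamus, midbrain, dentate and Purkinje cell markers. Astrocyte markers (6 genes) were at 1365 to 1583 CPM against 2278 to 2847 CPM without overlap, and oligodendrocyte markers (6 genes, all called lower) at 1024 to 2350 CPM against 1276 to 5409 CPM. These marker levels moved with the group in the comparisons below, and their part in the results was not tested. In bulk tissue, fewer cells of a type and less RNA per cell cannot be told apart. The part of the brain taken is not given, and whether it was the same in both groups cannot be told.

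Of the 30 regulators, 26 passed the filter on low counts and 19 of them were higher in the transgene libraries. Another 3 were lower: Etv1, Zbtb18 and Prox1. The remaining 4 tested genes, Tshz2, Cux1, Neurod2 and Id2, were not called. A gene was called when its Benjamini-Hochberg adjusted p in edgeR's quasi-likelihood test was under 0.05. Over all 19136 tested genes, 47.4% were called, with 23% called higher and 24.4% called lower, so the share of regulators that fell lay below that of genes in general and the share that rose lay above it. Log2 fold changes are transgene minus control, given ± SE. Their median over the 26 regulators was 1.83, against -0.05 over all tested genes. Being called and at least 2-fold higher applied to 14 regulators and to 8.44% of all tested genes. At least 4-fold higher were 11 regulators and 2.58% of all tested genes. For 15 regulators every transgene library lay above every control, which held for 9.46% of all tested genes, and for 0 regulators every transgene library lay below every control, which held for 5.4%. The genes were listed with earlier results of these data known, so these counts describe the list and do not test it. Emx2, Fezf2 and Mef2c had few counts in most controls and passed the filter through the transgene libraries, where they are high. The counts of higher regulators above include these genes, whose calls are no separate support.

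**Figure D1:**
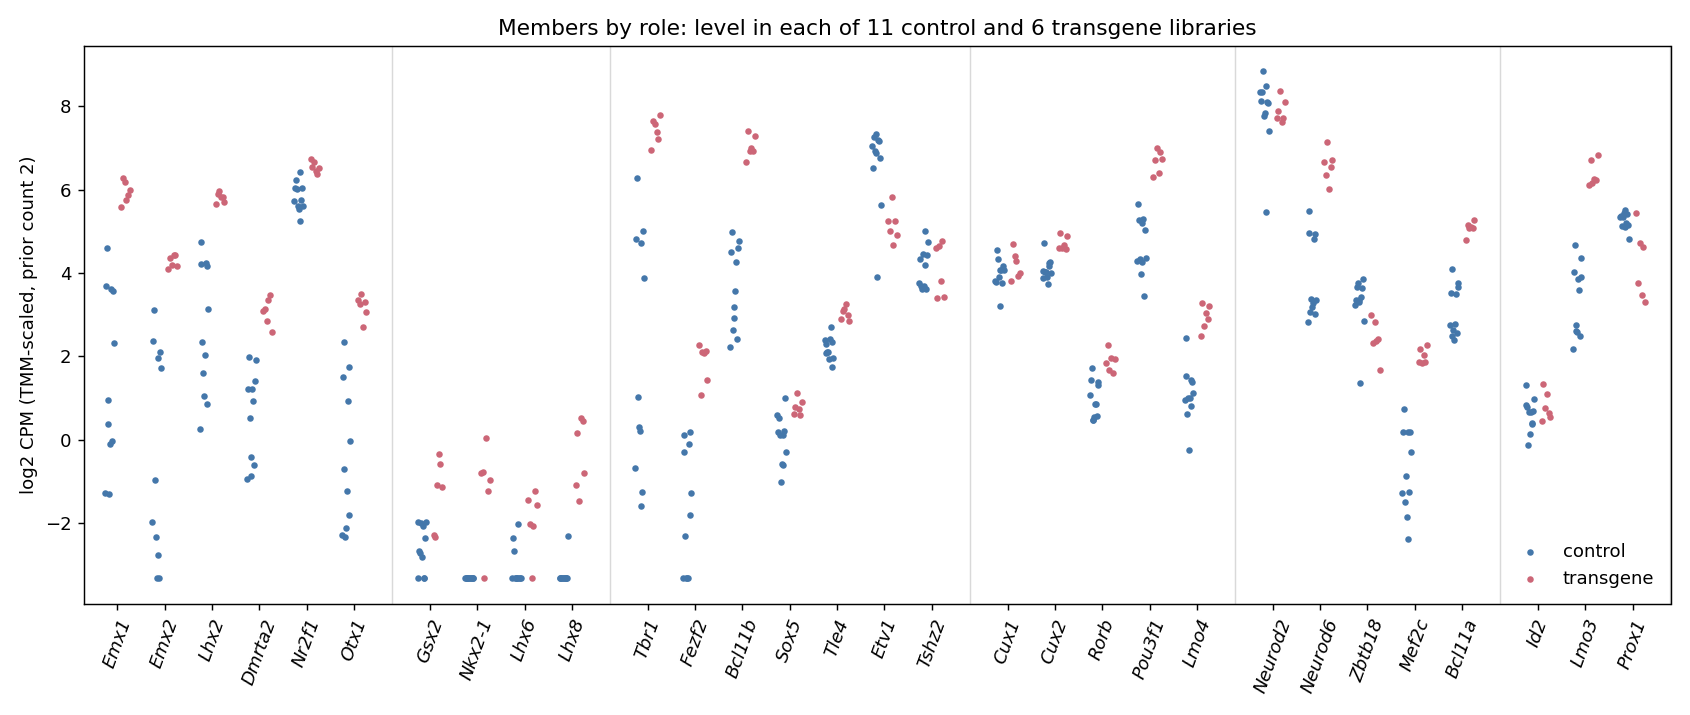
Level of each of the 30 regulators in every library, as log2 CPM with a prior count of 2, with genes grouped by role and separated by grey lines (11 control libraries in blue, 6 transgene libraries in red, 1 point each). Tbr1, Emx1, Emx2 and Lhx2 are spread widely over the controls and lie close together in the transgene libraries, all above the controls.

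Promoter sequence was taken from RefSeq (build GRCm38.p6), in which 28 of the 30 genes had an entry and Otx1 and Pou3f1 did not. The window was the 250 bases before the annotated start. Sequences are shown for a pair of related genes with different results, Neurod6, which rose, and Neurod2, which was not called. They are also shown for the regulator with the smallest adjusted p (Lmo3) and for the regulator with the largest fall (Etv1). These windows lie outside annotated exons, apart from 3 bases of the Neurod2 window. They are chr6:55681264-55681513 for Neurod6, chr11:98329646-98329895 for Neurod2 and chr6:138581969-138582218 for Lmo3, all on the minus strand, and chr12:38779832-38780081 for Etv1 on the plus strand. Each is written 5′ to 3′ along the gene's own strand, and capitals mark matches to the motifs searched.
Neurod6: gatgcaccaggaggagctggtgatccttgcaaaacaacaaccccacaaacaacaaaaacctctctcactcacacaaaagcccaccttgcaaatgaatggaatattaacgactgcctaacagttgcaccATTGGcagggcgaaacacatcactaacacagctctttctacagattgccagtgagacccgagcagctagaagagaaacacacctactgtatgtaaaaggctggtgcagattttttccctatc
Neurod2: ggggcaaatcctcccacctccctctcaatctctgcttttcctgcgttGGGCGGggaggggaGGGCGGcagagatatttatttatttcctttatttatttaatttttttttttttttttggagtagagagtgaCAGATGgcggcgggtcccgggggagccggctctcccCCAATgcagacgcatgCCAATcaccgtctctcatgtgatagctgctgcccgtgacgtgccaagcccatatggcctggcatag
Lmo3: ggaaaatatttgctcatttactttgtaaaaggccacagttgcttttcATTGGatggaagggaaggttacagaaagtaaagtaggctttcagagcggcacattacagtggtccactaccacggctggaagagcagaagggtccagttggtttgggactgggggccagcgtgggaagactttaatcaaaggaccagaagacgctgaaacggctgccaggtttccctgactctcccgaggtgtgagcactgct
Etv1: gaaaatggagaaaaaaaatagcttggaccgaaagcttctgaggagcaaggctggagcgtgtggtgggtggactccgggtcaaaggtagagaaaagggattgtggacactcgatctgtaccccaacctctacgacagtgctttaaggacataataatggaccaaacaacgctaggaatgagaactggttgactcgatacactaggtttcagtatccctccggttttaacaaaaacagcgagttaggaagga

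The motifs were searched on both strands, so ATTGG marks CCAAT on the opposite strand. Neurod6 and Lmo3 each held 1 CCAAT box. Neurod2 held the CCAAT box, the GC box GGGCGG and the E-box CAGATG, the type of site that NeuroD proteins are known to bind. None of the 5 motifs was found in the Etv1 window. Over the 28 regulators, the GC box was in 17 promoters (32.8% of all 32841 promoters held it) and the CCAAT box in 12 (33.9%). The TATA box TATAAA was in 4 (12.4%), the E-box CAGATG in 3 (14.5%) and the homeodomain core TAATTA in 2, Tbr1 and Mef2c (4.84%). The promoters of the regulators had a median CpG content of 0.71 of that expected from their base composition, against 0.37 over all promoters, and a median of 61.4% G and C, against 52.4%. The windows of Emx1, Emx2, Lhx2, Nr2f1, Tbr1 and Cux1 lie with all 250 bases in annotated exons, and that of Sox5 starts from another RefSeq transcript, 262374 bases from the start of its most counted row. A match describes these letters and is no evidence of binding.

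All 6 genes of dorsal and areal patterning rose, with a median log2 fold change of 2.65. Emx1 (mm10 chromosome 6, 85187438 to 85204462), a homeobox gene of the dorsal forebrain, had 48.0 to 77.9 CPM in the transgene libraries with a median of 61.1 CPM, and 0.306 to 24.0 CPM in the controls with a median of 1.85 CPM. Every transgene library lay above every control, and the log2 fold change was 3.28 ± 0.67 (SE, edgeR adjusted p = 0.000531). Emx2 (chromosome 19, 59458372 to 59465357), its relative with a role in the caudal and medial cortex, had 16.9 to 21.4 CPM with a median of 19.3 CPM against 0 to 8.56 CPM with a median of 0.411 CPM. The groups were again apart, 2 controls held no Emx2 count, and the log2 fold change was 3.08 ± 0.73 (edgeR adjusted p = 0.00183).

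Lhx2 (chromosome 2, 38339281 to 38369733), a LIM homeobox gene needed for cortical identity, had 50.4 to 63.0 CPM in the transgene libraries with a median of 56.8 CPM. In the controls it had 1.10 to 26.6 CPM with a median of 4.98 CPM. The groups did not overlap and the log2 fold change was 2.53 ± 0.52 (edgeR adjusted p = 0.000558). Dmrta2 (chromosome 4, 109978053 to 109983687), which acts with Emx2 in the caudal and medial cortex, had 5.91 to 11.1 CPM against 0.419 to 3.84 CPM, without overlap, and rose by 2.25 ± 0.38. Otx1 (chromosome 11, 21994764 to 22002897), a head homeobox gene also known from deep cortical layers, had 6.44 to 11.2 CPM against 0.0994 to 5.01 CPM, also without overlap, and rose by 2.76 ± 0.59. Nr2f1 (chromosome 13, 78188973 to 78199757), a nuclear receptor gene graded across cortical areas, rose least of the 6. It had 83.6 to 107.4 CPM against 37.7 to 85.3 CPM, the highest control lay above the lowest transgene library, and the log2 fold change was 0.68 ± 0.13 (edgeR adjusted p = 0.000388). Nr2f1 and Emx2 overlap antisense genes, and with no strand setting stated the reads of such partners cannot be told apart.

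The 4 ventral patterning genes were counted at very low levels and did not pass the filter over all libraries. Nkx2-1 (chromosome 12, 56531958 to 56536908), which specifies the medial ganglionic eminence, had 53 counts over 5 of the 6 transgene libraries and 0 counts in all 11 controls. Against the limit of 3 counts that a count of 0 allows over the control group (0.0138 CPM), it was at least 31.0-fold higher, and against the same limit over the 3 controls of lane 4 at least 8.71-fold higher. Lhx8 (chromosome 3, 154306294 to 154330659), a gene of cholinergic neurons that derive from that eminence, had 97 counts against 2, both of them in control 11, a ratio of 85.0 with an exact 95% interval of 22.9 to 712.2. Lhx8 was counted in all 6 transgene libraries, at 0.264 to 1.34 CPM. Summed markers of basal forebrain cholinergic neurons (4 genes) were at 18.7 to 48.1 CPM in the transgene libraries and 10.6 to 298.7 CPM in the controls. Of these 4 genes, 0 were called higher and 2 lower over all libraries.

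Lhx6 (chromosome 2, 36081953 to 36105408), a gene of migrating cortical interneurons, had 22 counts against 6, a ratio of 6.43 (exact 95% interval 2.53 to 19.4). Gsx2 (chromosome 5, 75075601 to 75077893), which patterns the lateral ganglionic eminence, had 44 counts against 17, a ratio of 4.54 (2.54 to 8.47). These intervals cover counting error only and not the spread between libraries, and each of the 4 other than Lhx8 had at least 1 transgene library within the range of the controls. With no filter on low counts all 4 were called higher over all libraries, with edgeR adjusted p of 0.000239 for Nkx2-1, 3.06e-07 for Lhx8, 0.0126 for Lhx6 and 0.00425 for Gsx2. Within lane 4 and without the filter, Gsx2 and Lhx6 were not called (edgeR adjusted p = 0.188 and 0.342).

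Among the 7 genes of deep-layer projection neurons, 5 rose, 1 fell and 1 was not called. Tbr1 (chromosome 2, 61802930 to 61814114), a T-box gene of layer 6 neurons, had 124.3 to 221.3 CPM in the transgene libraries with a median of 178.3 CPM, and 0.233 to 77.5 CPM in the controls with a median of 1.95 CPM. All transgene libraries lay above all controls, and the log2 fold change of 3.40 ± 0.85 was the largest among the tested regulators (edgeR adjusted p = 0.00294). Its control values spanned more than those of any other tested regulator on the log2 scale. Without control 3, the highest control, its log2 fold change was 4.04. With terms for lane and flow cell in the model it was 3.68 and Tbr1 was not called (edgeR adjusted p = 0.0564).

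Fezf2 (chromosome 14, 12342094 to 12348189), needed for the subcerebral projection neurons of layer 5, had 2 to 4.73 CPM with a median of 4.17 CPM against 0 to 1.05 CPM with a median of 0.184 CPM. It rose by 3.27 ± 0.58 with no overlap (edgeR adjusted p = 0.000138). Bcl11b (chromosome 12, 107910403 to 108003602), a zinc finger gene of corticospinal neurons and of striatal projection neurons, had 101.4 to 169.4 CPM with a median of 125.4 CPM against 4.60 to 31.3 CPM with a median of 11.7 CPM. It rose by 3.12 ± 0.36 with no overlap (edgeR adjusted p = 1.69e-06). Summed striatal projection neuron markers (9 genes) were at 1098 to 3081 CPM in the transgene libraries and 422.4 to 673 CPM in the controls. Bcl11b was highest in transgene 2, the library in which they were highest. Among controls the order differed. The markers were highest in control 4, with 6.06 CPM of Bcl11b, and lowest in control 10, with 24.4 CPM. Control 4 was also the highest control for Purkinje cell markers (2193 CPM) and cerebellar granule cell markers (2034 CPM). Whether the striatal sum follows striatal cells in the controls was not tested.

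Tle4 (chromosome 19, 14448150 to 14598051), a corepressor gene of layer 6 neurons, had 7.16 to 9.46 CPM against 3.22 to 6.39 CPM, without overlap, and rose by 0.85 ± 0.12. Sox5 (chromosome 6, 143828425 to 144781977), which times the production of deep-layer neurons, had 1.41 to 2.06 CPM against 0.398 to 1.90 CPM. Its groups overlapped, its log2 fold change was 0.72 ± 0.25 (edgeR adjusted p = 0.0259), and it was not called without transgene 3 (0.67, edgeR adjusted p = 0.058) or with scaling by library size only (0.60, edgeR adjusted p = 0.0547).

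Etv1 (chromosome 12, 38779380 to 38870484), an ETS gene of layer 5 neurons that is also known from cerebellar granule cells, fell by 1.62 ± 0.35 on the log2 scale (edgeR adjusted p = 0.000918). It had 25.3 to 57.0 CPM in the transgene libraries with a median of 34.8 CPM, and 14.8 to 162.5 CPM in the controls with a median of 121.1 CPM. Control 7 at 14.8 CPM lay below every transgene library and control 11 at 49.9 CPM lay within their range. With terms for lane and flow cell in the model the log2 fold change was -0.93 and Etv1 was not called (edgeR adjusted p = 0.115). Tshz2 (chromosome 2, 169633013 to 170071816), a zinc finger gene of deep-layer neurons that project nearby, had 10.49 to 27.2 CPM against 12.2 to 31.9 CPM, with a log2 fold change of 0.01 ± 0.25 (edgeR adjusted p = 0.981).

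Of the 5 genes of upper and middle layers, 4 rose and Cux1 was not called. Pou3f1 (chromosome 4, 124656807 to 124660655), a POU gene of cortical projection neurons that is also known from myelinating glia, had 78.8 to 127.9 CPM with a median of 106.2 CPM against 10.9 to 50.3 CPM with a median of 20.5 CPM. It rose by 1.92 ± 0.25 with no overlap (edgeR adjusted p = 6.16e-06). Lmo4 (chromosome 3, 144188530 to 144205220), a LIM-only cofactor gene of callosal neurons, had 5.53 to 9.56 CPM against 0.744 to 5.30 CPM and rose by 1.78 ± 0.26, with control 3 just under the lowest transgene library. Rorb (chromosome 19, 18930605 to 19111196), a nuclear receptor gene of layer 4, had 2.91 to 4.73 CPM against 1.28 to 3.20 CPM and rose by 0.90 ± 0.19. Cux2 (chromosome 5, 121856366 to 122050102), a homeobox gene of upper-layer neurons, had 23.6 to 31.0 CPM against 13.2 to 26.3 CPM and rose by 0.61 ± 0.12. For both Rorb and Cux2 control 3 was the highest control and lay within the range of the transgene libraries.

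Cux1 (chromosome 5, 136248135 to 136567490), the relative of Cux2 in upper-layer neurons, had 14.0 to 26 CPM against 9.21 to 23.4 CPM, a log2 fold change of 0.21 ± 0.16 (edgeR adjusted p = 0.297). Its counted transcripts differed from each other. The row with most counts, Cux1-201, had 14.3 ± 3.08 CPM (SD, n = 6) in the transgene libraries and 14.6 ± 3.26 CPM (n = 11) in the controls. The row Cux1-212 had 4.33 ± 1.70 CPM (n = 6) and 1.47 ± 0.61 CPM (n = 11), with ranges of 1.97 to 6.34 CPM and 0.558 to 2.50 CPM. Single transcript rows were not tested, and both rows were picked with their values known.

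The 5 genes of neuronal differentiation split into 3 that rose, 1 that fell and 1 that was not called. Neurod6 (chromosome 6, 55677822 to 55681263), a bHLH gene of cortical and hippocampal pyramidal neurons, had 64.9 to 140.9 CPM with a median of 97.5 CPM against 6.96 to 44.6 CPM with a median of 10.1 CPM. It rose by 2.46 ± 0.37 with no overlap (edgeR adjusted p = 3.17e-05). Its relative Neurod2 (chromosome 11, 98325415 to 98329648), which is known from the same neurons and from cerebellar granule cells, had 196.8 to 330.7 CPM with a median of 224.2 CPM against 44.1 to 458.5 CPM with a median of 276.7 CPM. The transgene range lay within the control range, and the log2 fold change was -0.14 ± 0.29 (edgeR adjusted p = 0.715). Both genes have a single deposited row, so neither lost reads to another transcript of its own.

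Mef2c (chromosome 13, 83504034 to 83667080), a MADS-box gene that acts in activity-dependent synapse development, had 3.49 to 4.73 CPM against 0.093 to 1.57 CPM, without overlap, and rose by 2.64 ± 0.37. It had 13 deposited rows, and 3.65% of its exonic bases lay in a single transcript row, so most of its reads may have gone uncounted. Bcl11a (chromosome 11, 24078056 to 24174123), the relative of Bcl11b, had 27.7 to 38.6 CPM against 5.12 to 17 CPM, without overlap, and rose by 1.88 ± 0.23 (edgeR adjusted p = 2.78e-06). Zbtb18 (chromosome 1, 177442351 to 177450764), a repressor gene of differentiating cortical neurons, fell by 0.88 ± 0.27 on the log2 scale (edgeR adjusted p = 0.011). It had 3.08 to 7.87 CPM with a median of 5.18 CPM against 2.46 to 14.5 CPM with a median of 10.2 CPM. Control 7 was the lowest of all 17 libraries, and with terms for lane and flow cell in the model Zbtb18 was not called (log2 fold change -0.28, edgeR adjusted p = 0.571).

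The last 3 regulators moved in different directions. Lmo3 (chromosome 6, 138362918 to 138581968), a LIM-only cofactor gene of forebrain neurons, had 68.9 to 113.2 CPM with a median of 75.8 CPM against 4.45 to 25.3 CPM with a median of 12.04 CPM. It rose by 2.83 ± 0.32 with no overlap and had the smallest adjusted p among the regulators (edgeR, 1.23e-06). Id2 (chromosome 12, 25093799 to 25097140), an inhibitor of bHLH factors, had 1.28 to 2.44 CPM against 0.821 to 2.38 CPM, a log2 fold change of 0.20 ± 0.21 (edgeR adjusted p = 0.455).

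Prox1 (chromosome 1, 190118035 to 190170714), a homeobox gene of dentate granule neurons that is also active in the thalamus, fell by 0.85 ± 0.24 on the log2 scale (edgeR adjusted p = 0.00773). It had 9.76 to 43.3 CPM with a median of 19.0 CPM in the transgene libraries, and 28.1 to 45.6 CPM with a median of 40.4 CPM in the controls. Transgene 1 at 43.3 CPM lay in the upper part of the control range, and the other transgene libraries had 9.76 to 26.5 CPM, below every control. Summed thalamus markers (6 genes) were also highest of the group in transgene 1 (250.2 CPM) and lowest in transgene 6 (36.9 CPM), where Prox1 was lowest, but the order between them differed: transgene 3, with the second highest Prox1 after transgene 1, had 43.8 CPM and transgene 4, with 11.03 CPM of Prox1, had 57.5 CPM. Control 7 had the highest thalamus markers of all libraries, 470.7 CPM, with 34.5 CPM of Prox1. The thalamus sum is mainly the level of Slc17a6, with 57286 counts over all libraries against at most 1618 for any other gene of the list. Control 7 was also the highest library for brainstem neuron markers (223.1 CPM), so this sum is no clear measure of thalamus. Dentate granule markers (4 genes) were at 197.3 to 429.8 CPM in the transgene libraries and 148.7 to 1223 CPM in the controls. This sum is mainly the level of Calb1, with 222839 counts over all libraries against at most 6367 for any other gene of the list. It was lowest among controls in control 7 (148.7 CPM) and next in control 11 (392.2 CPM), as were Purkinje cell markers (27.5 and 546.8 CPM). It is therefore no clear measure of dentate cells. Without transgene 1 the log2 fold change of Prox1 was -1.14. With terms for lane and flow cell in the model it was -0.63 and Prox1 was not called (edgeR adjusted p = 0.184).

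**Figure D2:**
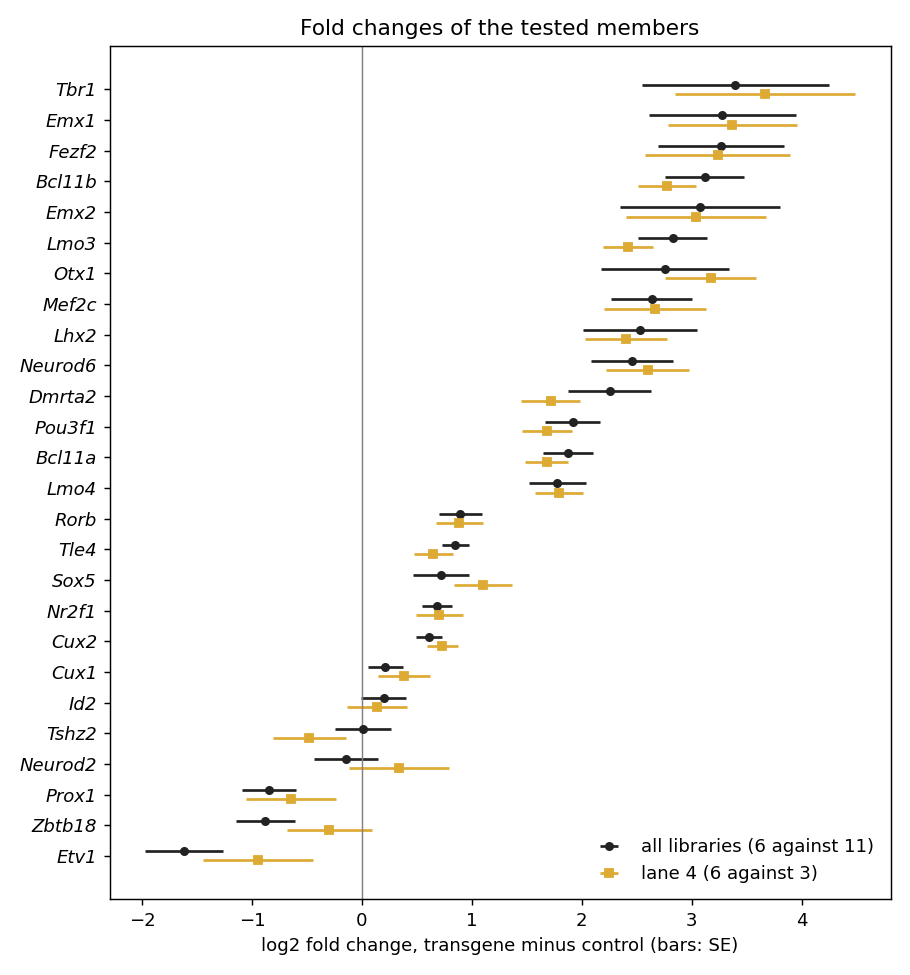
Log2 fold change (transgene minus control) of the 26 regulators tested over all libraries, ordered by size (black circles, 6 against 11 libraries; yellow squares, the same genes within lane 4, 6 against 3 libraries; bars, SE). Values over all libraries run from -1.62 for Etv1 to 3.40 for Tbr1, and Etv1 is also the gene whose square lies farthest from its circle, at -0.95 in lane 4.

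Since lane 4 held all transgene libraries but 3 of the 11 controls, these 9 libraries were also compared on their own. There 27 regulators were tested, Lhx8 among them, and 20 were called higher and 0 lower. Lhx8 passed the filter only through transgene libraries, where it is high, so its call is no separate support. Tbr1, Otx1, Emx2, Fezf2 and Mef2c also needed transgene libraries to pass, since control 7 held few counts of each. The counts of regulators given here include these genes. Of all 19261 tested genes, 25.6% were called in this comparison, 13.6% higher and 12% lower. The 19 regulators that rose over all libraries were all called here too, and the 3 that fell were not. Both comparisons use the same transgene libraries and share the 3 controls. The median log2 fold change of the 27 regulators was 1.68, against -0.04 over all tested genes. Every transgene library lay above every lane 4 control for 19 regulators, which held for 14.7% of all tested genes, and below every lane 4 control for 0, which held for 10.6%. Called and at least 2-fold higher were 16 regulators and 7.41% of all tested genes, and at least 4-fold higher 11 regulators and 2.74%.

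Within lane 4, Tbr1 had 0.233, 26.3 and 14.7 CPM in controls 7, 8 and 11, and rose by 3.67 ± 0.82 (edgeR adjusted p = 0.00829). Emx1 had 0.837, 12.2 and 4.90 CPM in these controls and rose by 3.37 ± 0.58 (edgeR adjusted p = 0.00213). Lhx8 rose by 4.35 ± 0.97 (edgeR adjusted p = 0.00809), on 97 counts against 2. Both of these counts were in control 11, so without it the lane 4 controls held 0 counts and no fold is given, and without control 7 the log2 fold change was 3.82. Without transgene 2, 4 or 5 Lhx8 did not pass the filter. Control 8 was the highest of the lane 4 controls for Tbr1 and Emx1, as it was for Lhx2, Otx1, Fezf2, Neurod6 and Mef2c. Without it the log2 fold changes were 4.57 for Tbr1, 4.45 for Emx1, 3.14 for Lhx2, 3.93 for Otx1, 4.55 for Fezf2, 3.29 for Neurod6 and 3.28 for Mef2c, all still called. Without control 7, Fezf2 had a log2 fold change of 2.65. The lane 4 call of Nr2f1 (0.70 ± 0.21, edgeR adjusted p = 0.033) was lost without control 7 (0.48, 0.0945), without control 11 (0.59, 0.129), without transgene 1, 2 or 3, and with scaling by library size only (0.63, 0.0612). That of Tle4 (0.65 ± 0.18, edgeR adjusted p = 0.0226) was lost without control 7 (0.67, 0.0501) and without control 11 (0.47, 0.0939). With control 7 and transgene 3 both left out, Nr2f1, Tle4, Sox5 and Rorb were not called in lane 4.

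None of the 3 genes that fell over all libraries was called in lane 4 with all 3 controls included. Etv1 had 14.8 CPM in control 7, 145.4 CPM in control 8 and 49.9 CPM in control 11, and its lane 4 log2 fold change was -0.95 ± 0.50 (edgeR adjusted p = 0.195). Without control 7 it was -1.42 and called (edgeR adjusted p = 0.0154), and without control 8 it was 0.18 and not called. Zbtb18 had 2.46, 10.7 and 7.07 CPM in the same controls and a log2 fold change of -0.30 ± 0.39 (edgeR adjusted p = 0.6247), which was 0.21 without control 8. Prox1 had 34.5, 36.7 and 28.1 CPM and a log2 fold change of -0.64 ± 0.41 (edgeR adjusted p = 0.282). Neurod2 had 44.1, 358.6 and 170.6 CPM, and its log2 fold change went from 0.34 ± 0.46 with all 3 controls to -0.13 without control 7 and 1.18 without control 8.

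Many of these genes varied widely from control to control. Tbr1 had 77.5 CPM in control 3, 32.3 CPM in control 10, 28.2 CPM in control 2, 26.3 CPM in control 8 and 14.7 CPM in control 11. The other 6 controls had 0.233 to 1.95 CPM, so a wide step separated the fifth highest control from the next. Controls 2, 3, 8, 10 and 11 were also the 5 highest for Emx1, Emx2, Lhx2, Otx1, Fezf2, Bcl11b, Lmo4, Mef2c and Bcl11a, 10 of the 26 tested regulators with Tbr1 included. Emx2, for example, had 3.20 to 8.56 CPM in these 5 and 0 to 0.411 CPM in the others, while for Lmo4 the lowest of the 5 (2.06 CPM) was close to the next control (1.91 CPM). Control 3 was the highest control for 15 of the 26 regulators.

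**Figure D3:**
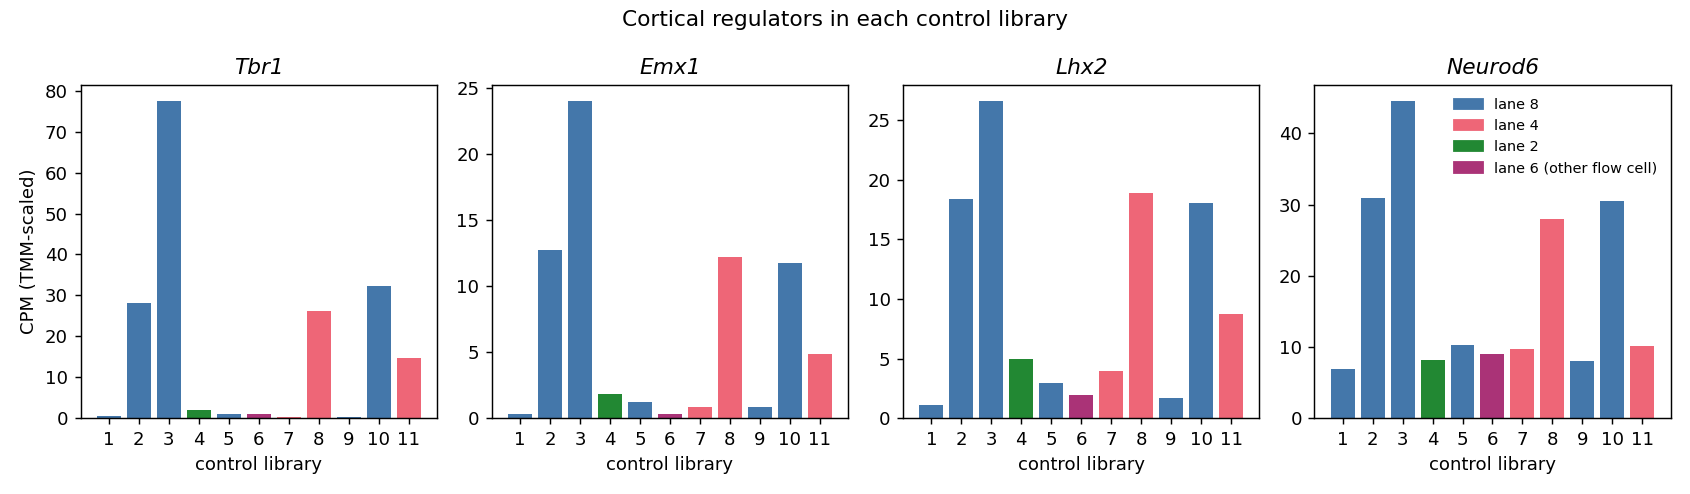
Level of Tbr1, Emx1, Lhx2 and Neurod6 in each of the 11 control libraries, in CPM on axes that start at 0, with bars coloured by sequencing lane. Controls 2, 3, 8 and 10 are the 4 highest for each of these genes, and they come from lanes 8 and 4.

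The SD of log2 CPM over the 11 controls had a median of 0.78 over the 26 tested regulators, against 0.32 over all tested genes. It was above the upper quartile of all genes (0.50) for 18 of the 26. The widest spreads were those of Tbr1 (2.90), Emx2 (2.56), Emx1 (2.14), Otx1 (1.76) and Lhx2 (1.58), and the narrowest was that of Prox1 (0.20). Over the 6 transgene libraries the median SD was 0.28 for the regulators and 0.26 for all genes. Tshz2 and Prox1 varied more in the transgene libraries than in the controls, while the other 24 regulators varied more in the controls, as did 63.8% of all tested genes. On lanes 8 and 4 taken alone, the median SD over the regulators was 0.66 and 0.55.

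Lanes were compared among the controls. Between the 6 controls of lane 8 and the 3 of lane 4, edgeR called 0 of the 26 tested regulators and 0% of 19384 genes. At an unadjusted p under 0.05 it gave 2 regulators, Prox1 and Tshz2, and 1543 genes (7.96% of all tested). After adjustment DESeq2 called 1 gene and limma-voom 0. Log2 fold changes (lane 8 minus lane 4) of the regulators ran from -0.63 for Dmrta2 to 0.90 for Otx1. Without control 8 they ran from -0.83 for Dmrta2 to 1.95 for Etv1, and with limma-voom from -1.06 for Dmrta2 to 1.39 for Etv1. Without control 8, edgeR gave 6 of the 26 regulators at an unadjusted p under 0.05. That is near the share of all genes, 22.1% of 20204, so it sets the regulators apart from no other genes. The lanes did not overlap for 0 regulators, while every lane 8 control lay above every lane 4 control for 1.52% of all tested genes and below for 1.1%. Without control 8 edgeR called 88 genes and 0 regulators.

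**Figure D4:**
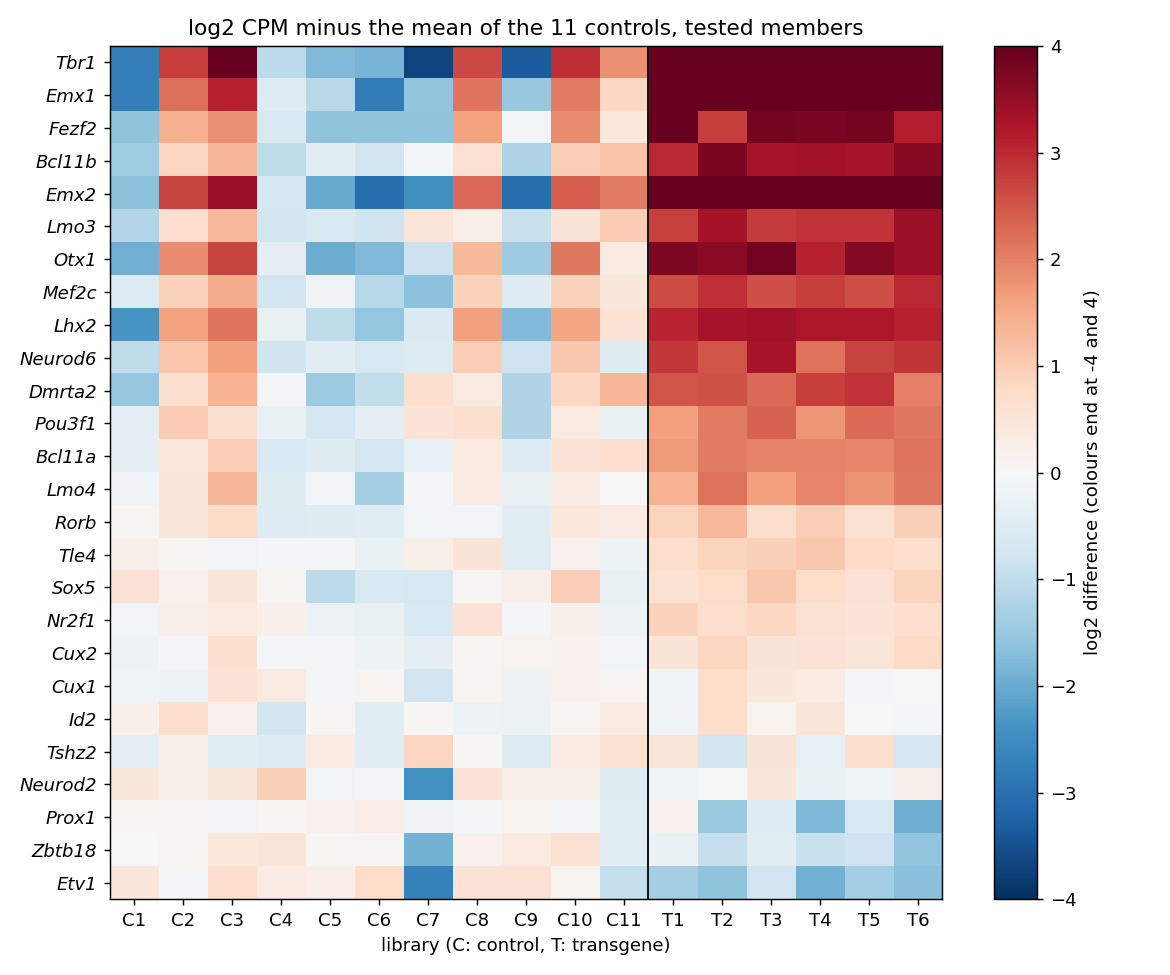
Difference of log2 CPM from the mean of the 11 controls for the 26 tested regulators (rows) in each library (columns; C, control; T, transgene), with colours that end at -4 and 4. The 6 transgene columns are alike for most genes, whereas the control columns alternate between low and high for Tbr1, Emx1, Emx2, Otx1, Lhx2 and Fezf2.

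For some regulators the order of the controls was like that of a regional marker list, and not every regulator was set beside every list. Tshz2 was highest among controls in control 7 (31.95 CPM) and next in control 11 (26.88 CPM). Thalamus markers, mostly counts of Slc17a6, were also highest among controls in control 7 (470.7 CPM) and next in control 11 (262.1 CPM). So were markers of brainstem neurons (223.1 and 131 CPM) and of oligodendrocytes (5409 and 3585 CPM), so the match is not particular to thalamus. Among transgene libraries the order differed. Tshz2 was highest in transgene 5 (27.2 CPM), with 129.4 CPM of thalamus markers, which were highest in transgene 1 (250.2 CPM), with 24.4 CPM of Tshz2. The 5 controls with the highest Tbr1 also had the 5 highest summed levels of cortical and hippocampal excitatory neuron markers, 1131 to 3055 CPM, against 567 to 858.6 CPM in the other 6. In control 3 both were highest among controls, at 77.5 CPM for Tbr1 and 3055 CPM for the markers. Among transgene libraries Tbr1 was lowest in transgene 1, at 124.3 CPM, where these markers were also lowest, at 4780 CPM. Of the 12 marker genes, 10 were called higher and 1 lower over all libraries, and 8 higher and 1 lower within lane 4.

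Low values of Etv1, Zbtb18 and Neurod2 in a pair of controls came with low values of cerebellar granule cell markers. Control 7 had the lowest values of all controls for these markers (89.9 CPM) and for Etv1 (14.8 CPM), Zbtb18 (2.46 CPM) and Neurod2 (44.1 CPM). Control 11 was next lowest for each of them, with 710.2 CPM for the markers, 49.9 CPM for Etv1, 7.07 CPM for Zbtb18 and 170.6 CPM for Neurod2. The match is not particular to granule cells. Controls 7 and 11 were also lowest and next lowest for Purkinje cell markers (27.5 and 546.8 CPM), midbrain markers (27.0 and 154.5 CPM) and the dentate list (148.7 and 392.2 CPM). The other controls had 1395 to 2034 CPM for the granule cell markers, and among them Zbtb18 did not keep this order. It was highest in control 10 (14.5 CPM), where these markers were lowest, and lowest in control 1 (9.26 CPM), where they were at 1894 CPM. Transgene libraries had 26.4 to 336.9 CPM for the granule cell markers but 196.8 to 330.7 CPM for Neurod2, above controls 7 and 11. All 6 granule cell marker genes were called lower over all libraries, and 4 of them within lane 4. Whether regional markers account for any of these differences was not tested.

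**Figure D5:**
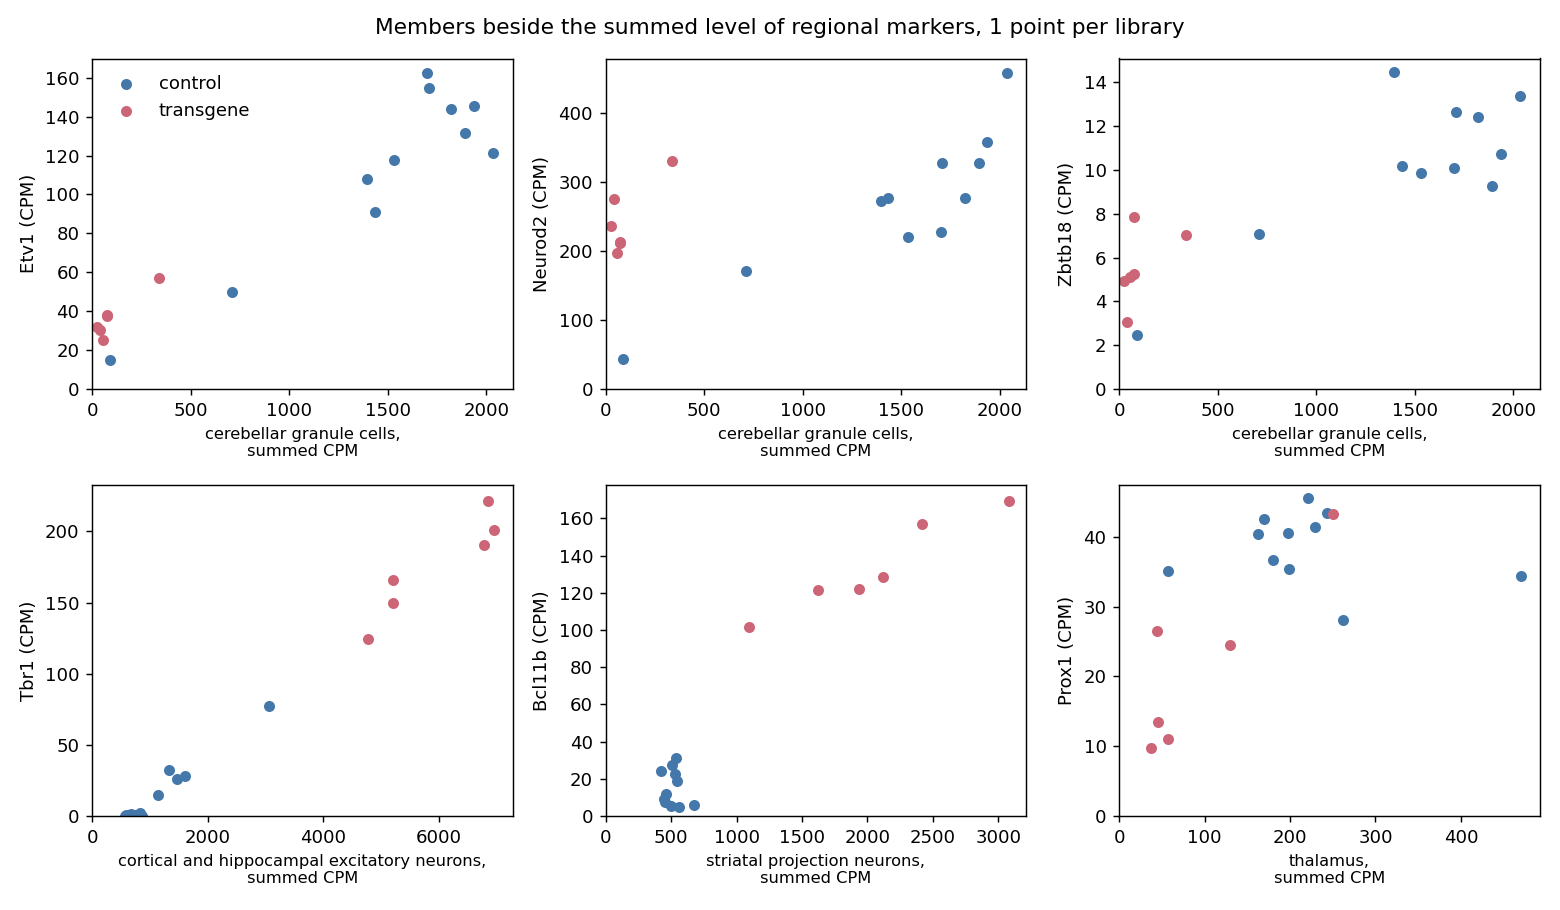
Level of a regulator (y axis, CPM) against the summed level of a regional marker list (x axis, CPM) in each library (11 controls in blue, 6 transgene libraries in red). Etv1, Neurod2 and Zbtb18 are lowest among controls in control 7, which has 89.9 CPM of granule cell markers, and Tbr1 and Bcl11b are high in the transgene libraries, where cortical and striatal markers are high.

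Relatives of these regulators showed no common direction. Of 35 genes from the same families, 32 were tested, 11 rose and 6 fell, with a median log2 fold change of 0.00, where 23% of all tested genes were called higher and 24.4% lower. Within lane 4, where the shares were 13.6% and 12%, 7 of 32 rose and 2 fell. Neurod1, the bHLH relative of Neurod2 and Neurod6 that is abundant in granule cells, fell by 3.40 ± 0.60 on the log2 scale, from 335.1 ± 142.7 CPM (SD, n = 11) in controls to 31.8 ± 29.4 CPM (n = 6). Rora, a relative of Rorb, fell by 1.30 ± 0.24, while Rorb rose. Eomes, the T-box relative of Tbr1, fell by 1.77 ± 0.56, and Otx2, the relative of Otx1, fell by 1.42 ± 0.55 (edgeR adjusted p = 0.0398). Tle2 fell by 1.35 ± 0.26 beside the rise of Tle4. Pou3f2, Pou3f3 and Pou3f4 rose with Pou3f1, by 0.64 ± 0.12, 0.68 ± 0.12 and 0.89 ± 0.17, and Mef2a and Mef2d rose with Mef2c, by 0.52 ± 0.10 and 0.61 ± 0.14.

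Of 26 other regulators of the telencephalon, 24 were tested, 17 rose and 2 fell, with a median log2 fold change of 1.56. Within lane 4, 9 of the 24 rose and 2 fell, with a median of 1.02. Of all tested genes, 23% were called higher and 24.4% lower over all libraries, and 13.6% and 12% within lane 4. Among those that rose were the ventral homeobox genes Dlx6 (4.37 ± 0.64, edgeR adjusted p = 2.33e-05) and Dlx5 (3.37 ± 0.68, edgeR adjusted p = 0.0005). Dlx6 had 10.1 ± 2.96 CPM (SD, n = 6) in the transgene libraries and 0.502 ± 0.725 CPM (n = 11) in the controls. The 2 that fell, Ebf1 (-2.67 ± 0.16) and Pax6 (-1.81 ± 0.28), are named here with their values known.

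How much of a gene was counted differed between the regulators. Reads that fell on several transcript rows were given to none, which makes levels of different genes unfit for comparison. Emx1, Emx2, Dmrta2, Otx1, Pou3f1, Neurod2 and Neurod6 have a single transcript row, so 100% of their exonic bases are shared with no other row of the same gene. For Tle4 the share was 0.745%, for Lhx6 3.30%, for Sox5 3.38%, for Mef2c 3.65% and for Rorb 7.38%. The fold changes of these 5 rest on short stretches of each gene. With only the largest row of each gene, the same numbers of regulators were called over all libraries, 19 higher and 3 lower. Sox5, Tshz2, Cux1, Pou3f1, Zbtb18, Bcl11a and Prox1 also overlap antisense genes, and Lhx6 overlaps a gene on its own strand.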

How the data were processed

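RNA of mouse brain was counted in 6 transgene and 11 control libraries, numbered in accession order within the groups of the treatment label. The deposited values are raw counts, for 68517 transcript or locus rows in each library, on build mm10 per the submitters' processing notes. Which aligner, counter, strand setting and annotation were used is not given in the sources used here. Reads on several features, a median of 41.5% per library, and reads outside features, 8.20%, stood in closing rows that name no gene and were left out. Rows were matched to GENCODE M21 (64380 rows, 125 Ensembl rows unmatched) and summed per gene, giving 45147 features.

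Genes were tested with edgeR 4.0.16 in R 4.3.3 (filterByExpr, TMM scaling, quasi-likelihood F test, Benjamini-Hochberg adjustment over all tested genes, threshold 0.05), and the procedure was tested on simulated data. Standard errors come from the F statistic. TMM factors also scale the CPM values, with a prior count of 2 on the log2 scale. Transgene was compared with control over all libraries and within lane 4, and lane 8 with lane 4 among controls. Alternatives were DESeq2 1.42.0, limma-voom (limma 3.58.1), other scaling, filters, thresholds and prior counts, the largest row of each gene, lane and flow cell as terms in the model, and leaving out libraries. Intervals and floors cover counting error only.

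The regulators, the lists of relatives and markers, and the tests were chosen with earlier results of these data known. All 30 regulators are named; of each list of related genes, at most 4 called genes with the largest change and relatives set beside their regulator; of marker lists, summed levels and at most 3 genes, plus 4 Hox genes at 0 that were chosen with their values known. A few genes that this rule would name are not reported here.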

Additional observations from a re-analysis of the deposited data

Results flagged for a closer look

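Each of the 30 regulators was examined for a single library far from the others, in the 6 transgene libraries (30 groups of values) and in the 6 controls of lane 8 (28 groups, since the rest held no spread). Chance marks about 1 in 20 such groups. Lmo4 in control 3, at 5.3 CPM, stood far above the next of the lane 8 controls, at 2.81 CPM. Control 3 was the highest control for 15 of the 26 tested regulators.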

How the results depend on the processing

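With terms for lane and flow cell in the model, 5887 genes instead of 9078 were called over all libraries, and of the regulators 18 were called higher and 0 lower. Tbr1 (log2 fold change 3.68, edgeR adjusted p = 0.0564), Etv1 (-0.93), Zbtb18 (-0.28) and Prox1 (-0.63) were the calls lost. Within lane 4, a threshold of 0.01 gave 2451 genes instead of 4936 and 16 regulators higher. Without control 7 and transgene 3 together, 16 regulators were called higher and 1 lower in lane 4 (Etv1, -1.60), and Sox5 was not called over all libraries (0.61). Leaving out single libraries gave 18 to 19 regulators higher and 3 lower over all libraries, and 18 to 20 higher and 0 to 1 lower in lane 4. It gave 0 to 88 genes between the control lanes, where DESeq2 called 1. Values that changed sign were those of Tshz2, Neurod2, Cux1 and Id2, which were called in neither comparison, and in lane 4 those of Etv1 and Zbtb18, which were called lower over all libraries. Tshz2 went from 0.01 to -0.09 with library size scaling, -0.02 with limma-voom and -0.46 with the lane term, and lay between -0.10 and 0.16 when single libraries were left out (-0.03, -0.04, -0.05 and -0.07 among them). Neurod2 went from -0.14 to 0.01 with limma-voom and 0.35 with the lane term, and in lane 4 from 0.34 to -0.13 without control 7, 1.18 without control 8 and -0.25 without control 7 and transgene 3. With the largest row of each gene, Cux1 was at -0.00 and Id2 at -0.01 over all libraries, and Id2 at -0.11 in lane 4. Nr2f1 was not called in lane 4 with library size scaling (0.63, edgeR adjusted p = 0.0612). When single libraries were left out in lane 4, Etv1 ran from -1.42 (called, without control 7) to 0.18 and Zbtb18 from -0.69 to 0.21. The cause of these changes was not tested. The median spread among controls stayed between 0.55 and 0.79. Low counts limit what can be said of Gsx2, Nkx2-1, Lhx6 and Lhx8, where a few reads decide each value. No paired analysis was possible because the labels give no replicate numbers.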
